A study of Mus musculus with 6 samples.

Results

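The nuclear-encoded subunits of the mitochondrial respiratory chain and ATP synthase were followed in RNA sequencing of mouse osteoblasts, the cells that lay down bone. A gene belonged to the group when its symbol began with Ndufa, Ndufb, Ndufc, Ndufs or Ndufv and a number (complex I), was Sdha, Sdhb, Sdhc or Sdhd (complex II), or began with Uqcr (complex III), with Cox4 to Cox8 (complex IV) or with Atp5 (ATP synthase). The rule used names and no measured value. It took 83 of 19679 gene symbols. Counted by name, 37 were of complex I, 4 of complex II, 8 of complex III, 17 of complex IV and 17 of ATP synthase. Atp5s and Atp5sl, counted under ATP synthase, are not subunits of the core enzyme. The 83 genes had 112 of the 30198 transcripts, 67 genes having 1 transcript and 16 having several, and the values of several transcripts were summed. Tests between sites were made for 81 genes, those with a mean of at least 0.5 RPKM (reads scaled by transcript length and by library depth). Cox6a2, with a mean of 1.6 RPKM, was the lowest gene inside that limit, and Cox8b, with 0.448 RPKM, the highest outside it. Cox7b2 was the other gene left out.

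The study set osteoblasts of the mandible, the lower jaw bone, against osteoblasts of the tibia, the shin bone, to ask which transcription factors mark the site. There were 3 libraries from the mandible and 3 from the tibia. Both groups came from transgenic Col1a1*2,3-GFP mice at postnatal day 9 (P9), so green fluorescent protein was carried by the mandible and the tibia groups alike, and the labels name no treatment. Each of 3 dissections pooled about 50 mice, and fluorescent cells were sorted after collagenase digestion, leaving 2 to 8 ng of RNA. The sort takes cells in which that fragment of the collagen promoter is active, and the replicates are pools, so no value belongs to a single animal. In such bulk samples, fewer cells of a type and less RNA per cell cannot be told apart.

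The respiratory chain passes electrons from NADH (through complex I) and succinate (through complex II) by way of ubiquinone, complex III and cytochrome c to oxygen at complex IV. Complexes I, III and IV pump protons across the inner mitochondrial membrane, and ATP synthase makes ATP as protons flow back. Complexes I, III, IV and ATP synthase are built from subunits of both the nuclear and the mitochondrial genome, and complex II from nuclear subunits alone. Osteoblasts use glycolysis heavily and also respire, and matrix synthesis draws on ATP from both routes. Nuclear respiratory factor 1 (Nrf1), the ETS factor GABP and Yy1 are textbook regulators of genes of this kind.

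Promoter sequence was read for members with an entry in the RefSeq promoter table of build GRCm38.p6, which covers 250 bases before to 50 bases after each transcription start. Of the members, 66 were matched, with 71 windows. A match to the NRF1 motif, spelled GCGC, any base, TGCGC and searched on both strands, stood in 18 member windows (25.4%) belonging to 17 members, against 4.6% of all 32851 windows of that length. The ETS core CCGGAAG, likewise on both strands, stood in 16 member windows (22.5%), against 8.86% of all windows. The YY1 motif, spelled AA, any base, ATGGC, any base, GC, stood in 7 member windows (9.86%), against 1.8% of all windows. In 6 member windows more than 1 motif was found, in 0 of them at overlapping bases, and a match is a description of the letters and not of binding. The windows of the 2 members with the highest mean RPKM that held an NRF1 match, Cox6a1 (minus strand, chr5:115348909-115349208) and Atp5g2 (minus strand, chr15:102670998-102671297), are shown first because these letters are what the largest share of the group had in common. The windows of Ndufb8 (minus strand, chr19:44555393-44555692) and Ndufs7 (plus strand, chr10:80249199-80249498) are the corresponding pair for YY1, read 5′ to 3′ on the strand of the gene. Capitals mark the NRF1 matches in Cox6a1 and Atp5g2 and the YY1 matches in Ndufb8 and Ndufs7.
Cox6a1: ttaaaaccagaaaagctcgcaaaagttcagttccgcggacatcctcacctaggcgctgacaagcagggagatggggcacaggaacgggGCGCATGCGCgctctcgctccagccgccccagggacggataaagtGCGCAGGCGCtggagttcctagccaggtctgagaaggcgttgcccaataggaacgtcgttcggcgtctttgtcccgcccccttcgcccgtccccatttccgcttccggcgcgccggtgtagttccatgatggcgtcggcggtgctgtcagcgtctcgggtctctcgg
Atp5g2: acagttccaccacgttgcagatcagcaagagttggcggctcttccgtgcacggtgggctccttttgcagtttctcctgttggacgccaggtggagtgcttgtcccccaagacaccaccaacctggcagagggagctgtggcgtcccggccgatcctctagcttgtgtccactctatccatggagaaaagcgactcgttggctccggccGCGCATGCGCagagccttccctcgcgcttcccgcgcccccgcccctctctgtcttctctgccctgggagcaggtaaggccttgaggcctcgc
Ndufb8: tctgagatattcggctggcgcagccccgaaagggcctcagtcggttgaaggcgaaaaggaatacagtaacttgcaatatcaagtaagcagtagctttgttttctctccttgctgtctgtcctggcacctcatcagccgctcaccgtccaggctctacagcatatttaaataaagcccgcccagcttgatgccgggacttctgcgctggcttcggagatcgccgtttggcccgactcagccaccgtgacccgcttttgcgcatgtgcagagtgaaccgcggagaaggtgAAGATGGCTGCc
Ndufs7: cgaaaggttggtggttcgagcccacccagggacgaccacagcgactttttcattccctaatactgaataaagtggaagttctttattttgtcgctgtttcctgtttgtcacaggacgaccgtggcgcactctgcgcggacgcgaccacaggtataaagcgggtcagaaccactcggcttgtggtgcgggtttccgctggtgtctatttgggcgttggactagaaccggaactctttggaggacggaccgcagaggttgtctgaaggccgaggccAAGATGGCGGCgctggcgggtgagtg

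The factors themselves were present in both groups. Nrf1 had 10.4, 11.1 and 8.81 RPKM in mandible libraries 1, 2 and 3, against 10.7, 12.1 and 8.7 RPKM in tibia libraries 1, 2 and 3. Gabpa, the DNA-binding part of GABP, had 3.17, 3.28 and 3.48 RPKM in the mandible, against 2.21, 2.84 and 2.57 RPKM in the tibia. Yy1 had 3.11, 2.36 and 4.71 RPKM in the mandible, against 2.62, 2.47 and 5.97 RPKM in the tibia. The adjusted p of these 3 factors between sites lay between 0.669 and 0.989 by limma.

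Depth, estimated from the smallest steps between low values, was 49.5 to 58.0 M reads in the mandible libraries and 48.9 to 51.9 M reads in the tibia libraries. All 10 osteoblast markers were above the limit, their summed RPKM lying between 54441 and 64170 in mandible libraries and between 58397 and 66605 in tibia libraries. Single markers moved in opposite directions under that sum. Col1a1, the collagen gene whose promoter fragment drives the sorted fluorescence, had 17291, 17057 and 5566 RPKM in mandible libraries 1, 2 and 3, against 26205, 24442 and 7990 RPKM in tibia libraries 1, 2 and 3. Its partner Col1a2 and the transcription factor Sp7 were likewise lower in library 3 at both sites. The difference from libraries 1 and 2 on the log2 scale was -1.63 for Col1a1, -1.54 for Col1a2 and -1.44 for Sp7 in the mandible, and -1.66, -1.56 and -1.57 for the same genes in the tibia. The matrix genes Spp1 and Bglap were higher there, by 1.57 and 0.63 in the mandible and by 1.0 and 1.45 in the tibia. Between sites Col1a1 and Col1a2 fell in the mandible under limma with the dissection number as a block (adjusted p = 0.0310 and 0.0376) and Ibsp, bone sialoprotein, rose (adjusted p = 0.0192), whereas without the block the 3 were at adjusted p = 0.952, 0.951 and 0.628. Marker sums of some other cells were highest in the libraries of dissection 3 at both sites, although the erythroid sum also rose from dissection 1 to dissection 2. The summed RPKM of 11 erythroid markers was 2209, 7778 and 20673 in mandible libraries 1, 2 and 3, against 5608, 13846 and 43045 in tibia libraries 1, 2 and 3. The sum of 11 macrophage and neutrophil markers was 868, 1157 and 8853 in the mandible, against 1338, 1886 and 9334 in the tibia. The sum of 14 skeletal muscle markers was 15.3, 19.3 and 70.0 in the mandible, against 10.2, 15.2 and 86.4 in the tibia. No list among these had a marker at 0 in every library. Abundant genes made up much of the sums, such as Hba-a1 with 8357 RPKM and S100a8 with 3140 RPKM in mandible library 3. The median erythroid marker differed in library 3 by 1.61 in the mandible and 1.59 in the tibia on the log2 scale. The median macrophage and neutrophil marker differed by 2.03 and 1.28. Less change was seen in Klf1 (0.18 and 0.12), Slc4a1 (0.32 and 0.28) and Csf1r (-0.09 and -0.15) of these lists. The part of erythroid, macrophage, neutrophil and muscle cells in the subunit values was not tested.

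Respiratory chain genes were among the most abundant transcripts of these osteoblasts. By mean RPKM the median member stood at percentile 96.3 of the 12752 genes tested, and 67 members lay at percentile 90 or above. Of all RPKM, the 83 genes together held 2.28%, 2.29% and 3.41% in mandible libraries 1, 2 and 3, against 2.43%, 2.20% and 2.67% in tibia libraries 1, 2 and 3. Libraries 1 and 2 of both sites thus lay within a narrow band, and library 3 was above them at each site.

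Most subunit genes read higher in library 3 than in libraries 1 and 2 of the same site, and a small set read far lower. Over the 81 members, the median difference of library 3 from the mean of libraries 1 and 2 was 1.15 in the mandible and 0.88 in the tibia, in log2(RPKM + 0.5), whereas over all genes tested it was 0.07 in the mandible and 0.15 in the tibia. In the mandible 49 members (60.5%) were at least 1 higher on the log2 scale in library 3, against 9.82% of all genes. In the tibia 33 members (40.7%) were, against 9.36% of all genes. The count at both sites was 32 members (39.5%), against 6.32% of all genes. No test was made of this difference, since each site has a single library of dissection 3.

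**Figure D1:**
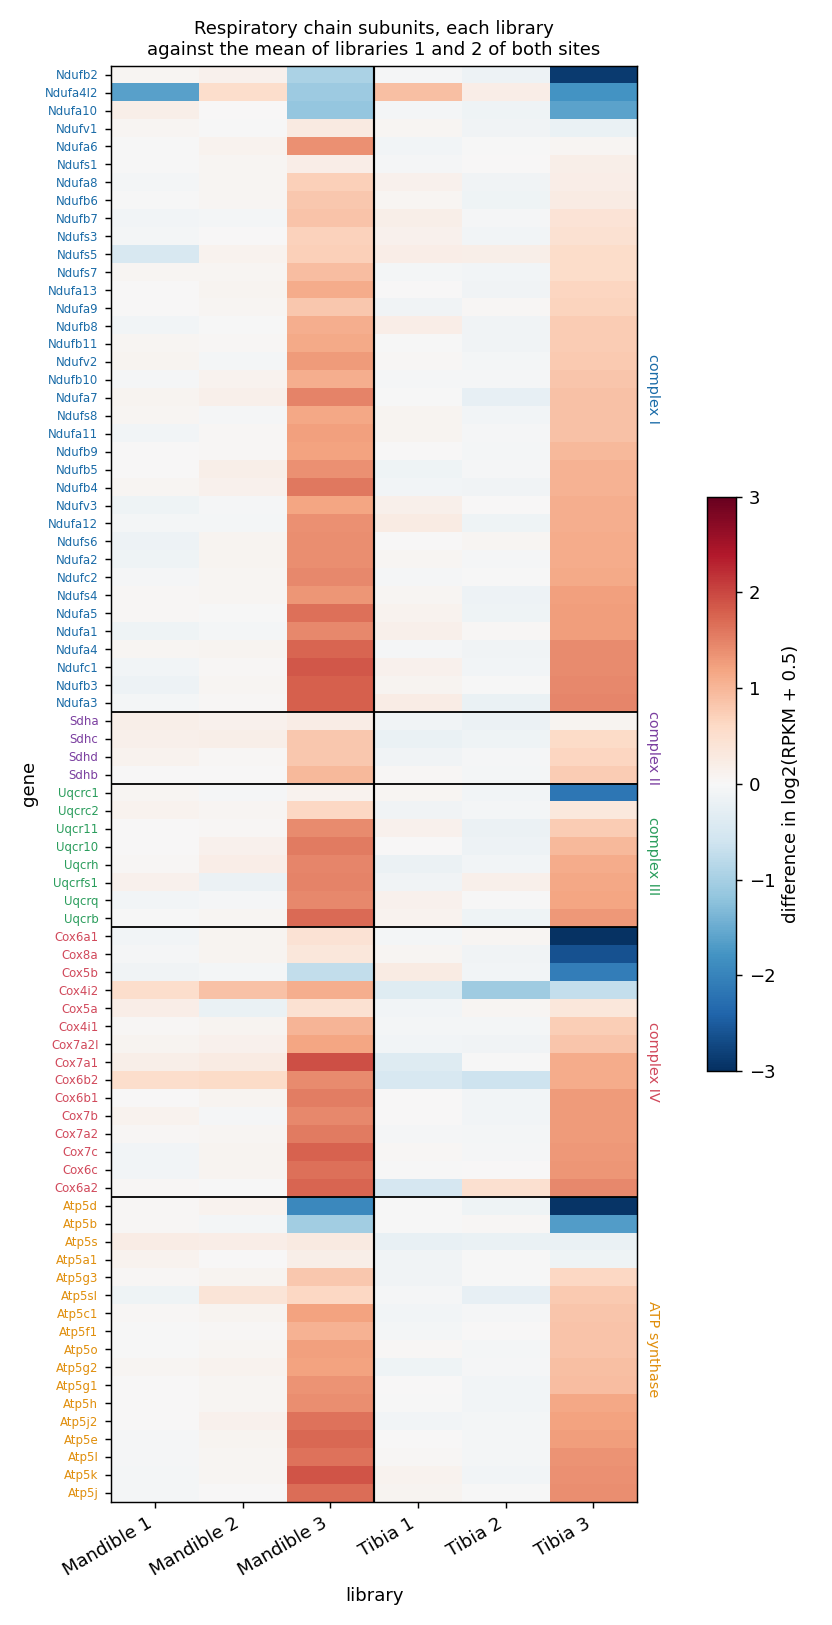
Each row is 1 of 80 subunit genes, grouped by complex, and each column is 1 library, mandible left of tibia. Colour gives the log2(RPKM + 0.5) of the library minus the mean of libraries 1 and 2 of both sites, so that the red columns of library 3, with medians of 1.15 in the mandible and 0.88 in the tibia against libraries 1 and 2 of their site, stand out, as do the blue cells of the genes that were low there.

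The difference was largest for short transcripts. The median length of the members was 738 bases, against 2802 bases for all genes tested (GENCODE lengths, 80 of 81 members matched). Among the 9 members under 500 bases the median difference of library 3 was 1.52 in the mandible and 1.16 in the tibia. Among the 32 members of 500 to 750 bases it was 1.33 in the mandible and 1.02 in the tibia, and among the 5 members of 2000 bases or more it was 0.12 in the mandible and 0.20 in the tibia. All genes tested followed the same order, with medians of 1.38 in the mandible and 1.02 in the tibia for 142 genes under 500 bases, and of -0.07 in the mandible and 0.05 in the tibia for 8572 genes of 2000 bases or more. Across the 80 members with a length, Spearman's rho between length and the difference was -0.54 in the mandible and -0.42 in the tibia, and the points share their libraries. With genes under 1000 bases alone, 38 of 54 members (70.4%) were at least 1 higher in mandible library 3, against 45.3% of 1032 genes, and 28 members (51.9%) were in tibia library 3, against 35.5%. Cytosolic ribosomal protein genes, which are also short and abundant, had medians of 1.31 in the mandible and 1.17 in the tibia over 95 genes, and mitochondrial ribosomal protein genes had 0.82 in the mandible and 0.70 in the tibia over 77 genes.

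**Figure D2:**
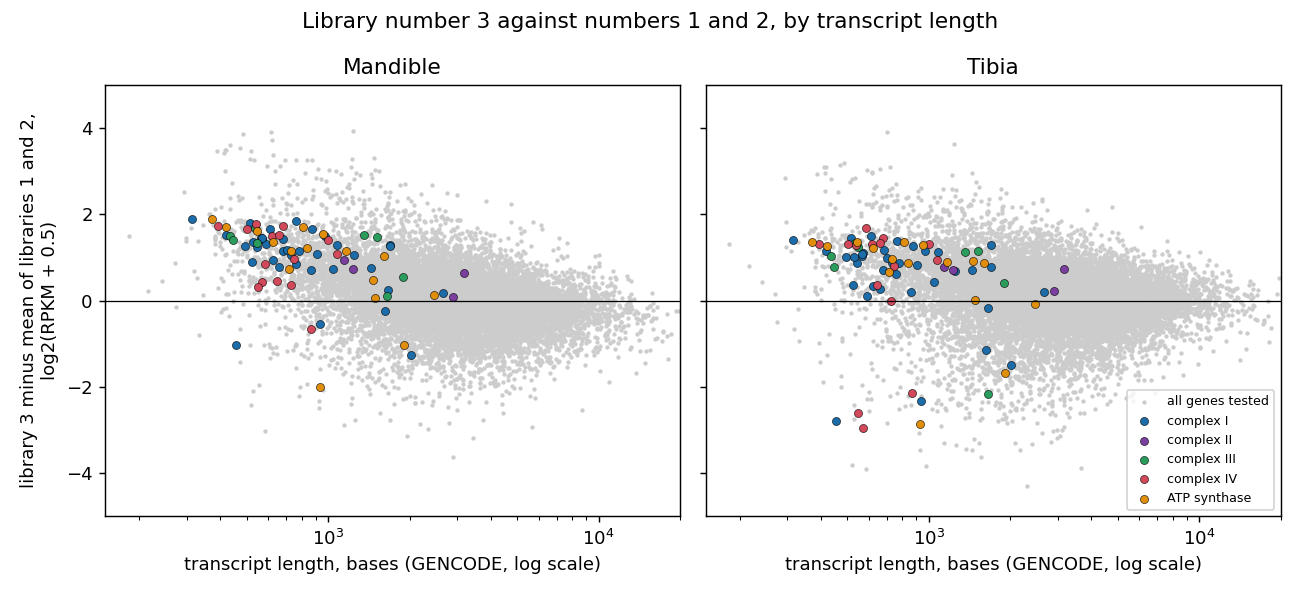
Transcript length in bases (log scale) against the difference of library 3 from the mean of libraries 1 and 2 in log2(RPKM + 0.5), for the mandible (left) and the tibia (right). Grey points are all genes tested with a length and coloured points are subunit genes by complex; the coloured points fall with length, at a rho of -0.54 in the mandible and -0.42 in the tibia.

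The largest gains in the mandible were those of Ndufc1 and Atp5k. Ndufc1, an accessory subunit of complex I with a transcript of 315 bases, had 82.0, 89.6 and 319 RPKM in mandible libraries 1, 2 and 3, against 94.3, 81.7 and 234 RPKM in tibia libraries 1, 2 and 3. Atp5k, the small e subunit of ATP synthase, with a transcript of 371 bases, had 122, 133 and 472 RPKM in the mandible, against 137, 121 and 334 RPKM in the tibia. In both genes the libraries numbered 3 were above the other 4, and libraries 1 and 2 overlapped between sites. Ndufv3, the accessory subunit of the NADH-oxidising arm, has a short and a long transcript in the table, which can be read separately. Its transcript of 493 bases had 52.1, 57.1 and 159 RPKM in the mandible, against 69.7, 60.4 and 143 RPKM in the tibia, and its transcript of 1582 bases had 16.3, 15.8 and 12.1 RPKM in the mandible, against 13.2, 14.2 and 16.1 RPKM in the tibia. The short form was far higher in library 3 at both sites, while the long form was lowest in library 3 of the mandible and slightly highest in library 3 of the tibia.

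A set of 10 members was at least 1 lower on the log2 scale in tibia library 3 than in tibia libraries 1 and 2 (12.3%, against 7.88% of all genes). They included Atp5b, Atp5d, Cox5b, Cox6a1, Cox8a, Ndufa10, Ndufb2 and Uqcrc1. In mandible library 3, 4 of them (4.94%, against 6.42% of all genes) were as far below, namely Atp5b, Atp5d, Ndufa10 and Ndufb2, so these 4 were low at both sites, against 3.73% of all genes. Length did not set the 10 apart, their median being 932 bases against 729 bases for the other 70 members with a length, and their median GC content was 55.9% (49.0% to 61.1%), against 51.5% (39.0% to 60.7%) for the others. Atp5d, the delta subunit of the catalytic head, had 210, 219 and 53.1 RPKM in mandible libraries 1, 2 and 3, against 203, 187 and 26.3 RPKM in tibia libraries 1, 2 and 3. Atp5b, the catalytic beta subunit, had 265, 251 and 126 RPKM in the mandible, against 259, 265 and 80.9 RPKM in the tibia. Both genes were thus low in dissection 3 at both sites, and lower in its tibia library.

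Other members were low in the tibia library of dissection 3 alone. Cox6a1, the ubiquitous form of complex IV subunit 6A (chr5:115345652-115348958), had 428, 477 and 612 RPKM in mandible libraries 1, 2 and 3, against 438, 472 and 57.9 RPKM in tibia libraries 1, 2 and 3. Cox8a, the ubiquitous form of subunit 8, had 208, 226 and 269 RPKM in the mandible, against 223, 199 and 34.3 RPKM in the tibia. Uqcrc1, a core protein of complex III, had 214, 198 and 220 RPKM in the mandible, against 212, 194 and 44.8 RPKM in the tibia. Tibia library 3 stood by itself in each of these genes, far below the 5 other libraries. Across the 80 members with a length the difference of library 3 was nevertheless alike in rank at both sites, with a rho of 0.90. Over the 12478 genes tested that had a length it was 0.79.

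**Figure D3:**
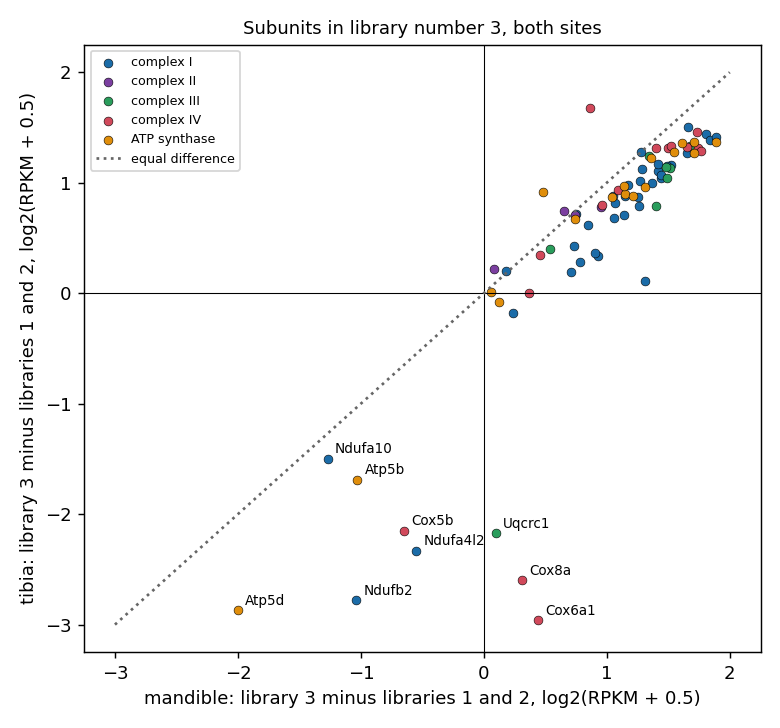
Each point is 1 of 80 subunit genes, with the difference of library 3 from libraries 1 and 2 in the mandible on the horizontal axis and in the tibia on the vertical axis, both in log2(RPKM + 0.5). The dotted line marks equal differences, and labels are given to genes at least 1 lower in tibia library 3, among them Cox6a1 at 0.44 for the mandible and -2.96 for the tibia.

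By complex, the summed level followed the same course over libraries. Complex I summed to 2764, 2968 and 6644 RPKM in mandible libraries 1, 2 and 3, against 3018, 2716 and 5062 RPKM in tibia libraries 1, 2 and 3. Complex IV summed to 2074, 2230 and 4407 RPKM in the mandible, against 2072, 2023 and 2829 RPKM in the tibia. ATP synthase summed to 2647, 2722 and 5632 RPKM in the mandible, against 2579, 2536 and 4373 RPKM in the tibia. With library 3 left aside, the sums of complex I overlapped between sites, and those of complex IV and ATP synthase were slightly higher in the mandible.

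Complex I, which oxidises NADH, had its 7 nuclear-encoded core subunits at modest levels and its accessory subunits higher. The core subunits had medians of 52.2, 48.5 and 71.8 RPKM in mandible libraries 1, 2 and 3, against 48.4, 45.4 and 57.3 RPKM in tibia libraries 1, 2 and 3. The 30 accessory subunits had medians of 79.0, 87.9 and 192 RPKM in the mandible, against 86.0, 79.8 and 155 RPKM in the tibia. These 30 were counted by name, and they include Ndufa4, which is now placed in complex IV, and its relative Ndufa4l2. Ndufs1, the largest iron-sulphur subunit, was the lowest of the complex, with 17.7, 18.5 and 20.6 RPKM in the mandible, against 17.3, 17.9 and 20.3 RPKM in the tibia, and its transcript of 2661 bases was little higher in library 3. Ndufv1, the subunit that binds NADH, had 71.1, 68.6 and 82.4 RPKM in the mandible, against 72.0, 63.7 and 59.6 RPKM in the tibia. Among the other core subunits, Ndufs7 and Ndufs8, which carry iron-sulphur clusters, were the most abundant, with means of 126 and 121 RPKM over the 6 libraries. Ndufa3, an accessory subunit, was the highest member of the complex, with 152, 161 and 549 RPKM in the mandible, against 185, 139 and 435 RPKM in the tibia.

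Complex II, succinate dehydrogenase, links the chain to the tricarboxylic acid cycle. Its median difference of library 3 from libraries 1 and 2 was 0.70 in the mandible and 0.73 in the tibia, the smallest of the 5 sets. Sdha, the flavoprotein that oxidises succinate, had 72.5, 70.2 and 75.7 RPKM in mandible libraries 1, 2 and 3, against 60.1, 57.1 and 68.3 RPKM in tibia libraries 1, 2 and 3. Every mandible library was above every tibia library, by a log2 fold change of 0.24 (SE 0.19) that did not pass limma's test (adjusted p = 0.865). It was 0.10 after quantile normalization and after median-of-ratios scaling. Sdhc, a membrane anchor, had 73.8, 74.5 and 117 RPKM in the mandible, against 57.3, 60.6 and 98.8 RPKM in the tibia, and was higher in the mandible in each dissection. Sdhd, the other anchor, had 82.6, 78.7 and 135 RPKM in the mandible, against 71.1, 75.1 and 120 RPKM in the tibia. Sdhb, the iron-sulphur subunit, had 96.0, 96.0 and 186 RPKM in the mandible, against 96.9, 91.2 and 162 RPKM in the tibia, with the sites overlapping.

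Complex III, which passes electrons from ubiquinol to cytochrome c, held genes of very different levels. Uqcr10, a small subunit, was the highest, with 197, 212 and 577 RPKM in mandible libraries 1, 2 and 3, against 196, 174 and 380 RPKM in tibia libraries 1, 2 and 3. Uqcrfs1, the Rieske iron-sulphur protein, was the lowest, with 4.31, 3.38 and 11.8 RPKM in the mandible, against 3.58, 4.41 and 9.27 RPKM in the tibia. Uqcrc2, the partner of Uqcrc1, had 50.2, 48.4 and 71.7 RPKM in the mandible, against 42.8, 44.7 and 57.7 RPKM in the tibia, so the sharply low value of Uqcrc1 in tibia library 3 was not shared by its partner.

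ATP synthase had its 5 genes of the F1 head at medians of 223, 242 and 282 RPKM in mandible libraries 1, 2 and 3, against 231, 219 and 227 RPKM in tibia libraries 1, 2 and 3. Atp5a1, the alpha subunit, had 270, 250 and 282 RPKM in the mandible, against 231, 248 and 227 RPKM in the tibia, with no overlap of sites, although mandible library 2 and tibia library 2 differed by 0.01 on the log2 scale. Atp5c1, the gamma subunit, had 135, 138 and 305 RPKM in the mandible, against 123, 128 and 234 RPKM in the tibia. Atp5e, the epsilon subunit and the highest gene of the complex, had 223, 242 and 761 RPKM in the mandible, against 232, 219 and 544 RPKM in the tibia. The 7 stalk and membrane subunits were at medians of 122, 133 and 428 RPKM in the mandible, against 137, 123 and 334 RPKM in the tibia. The subunits of 1 head, which is assembled in fixed numbers, were not at fixed ratios of RPKM over libraries, Atp5e being high and Atp5d low in the same library 3.

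Between sites, no respiratory chain gene passed the test in the comparison of all 6 libraries. With limma on log2(RPKM + 0.5) and Benjamini-Hochberg adjustment over 12752 genes at a threshold of 0.05, 0 of 81 members were called, against a background of 0.972% (124 genes). At an unadjusted p under 0.05 there were 2 members, Cox4i2 and Atp5s, against 8.99% of all genes. The median log2 fold change of the members, mandible minus tibia, was 0.15, against 0.12 for all genes tested, and 77 members (95.1%) lay above 0, against 67.8% of all genes. After quantile normalization, which gives every library the same spread of values, the medians were -0.01 for members and -0.01 for all genes, and 38 members (46.9%) lay above 0, against 48.3% of all genes. The side on which most members fell thus depended on the scaling.

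By complex the median log2 fold change was 0.12 for complex I, 0.19 for complex II, 0.23 for complex III, 0.18 for complex IV and 0.18 for ATP synthase. Without both libraries of dissection 3 it was 0.04 for complex I, 0.04 for complex III, 0.07 for complex IV and 0.09 for ATP synthase, but 0.21 for complex II. After quantile normalization it was -0.06 for complex I and -0.01 for ATP synthase, each a turned sign. It was then 0.05 for complex II, 0.06 for complex III and 0.01 for complex IV. The median member differed between mandible and tibia by 0.01 in dissection 1, by 0.12 in dissection 2 and by 0.34 in dissection 3, whereas the median of all genes was 0.09, 0.15 and 0.10 in the same dissections. Without both libraries of dissection 3 the median over members was 0.04, against 0.12 for all genes. In that comparison 71 members (87.7%) differed by no more than 0.25 on the log2 scale between the sites, against 57.4% of all genes tested. The median of the mean RPKM was 122 over members, against 4.6 over all genes tested, and genes of like abundance were not compared. Of the members, 36 (44.4%) were higher in the mandible in each of the 3 dissections, against 36.8% of all genes, and 14 (17.3%) were after quantile normalization, against 20.7%. Every mandible library lay above every tibia library for Atp5a1, Atp5s, Cox4i2 and Sdha (4.94%, against 12.6% of all genes), and no member had the reverse, against 3.05%.

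**Figure D4:**
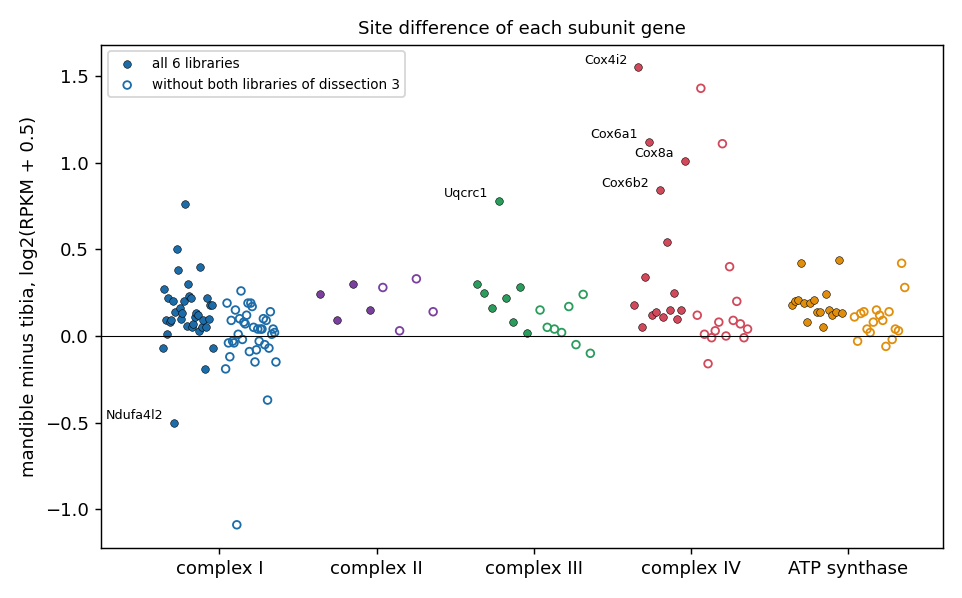
The difference of mandible minus tibia in log2(RPKM + 0.5) for each subunit gene, by complex. Filled points use all 6 libraries and open points leave out both libraries of dissection 3; Cox6a1 and Cox8a are at 1.12 and 1.01 as filled points and at -0.01 and 0.04 as open points, while Cox4i2 is at 1.55 and 1.43.

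The gene with the largest difference was Cox4i2, an alternative form of complex IV subunit 4 that is known from lung, pericytes and smooth muscle and from responses to oxygen. Cox4i2 had 54.2, 69.3 and 79.1 RPKM in mandible libraries 1, 2 and 3, against 28.8, 17.5 and 22.4 RPKM in tibia libraries 1, 2 and 3. The lowest mandible library was well above the highest tibia library, and the gene averaged 67.6 ± 12.6 RPKM in mandible libraries and 22.9 ± 5.65 RPKM in tibia libraries (SD, n = 3 each). Its log2 fold change was 1.55 (SE 0.26), with an adjusted p of 0.0596 by limma, just outside the threshold. With the dissection number as a block it rose in the mandible (adjusted p = 0.0114, SE 0.21) as the single member called of 81 (1.23%), against 6.49% of all genes (828 genes). Block and quantile normalization together also left Cox4i2 as the single member called, against 6.15% of all genes. Without dissection 3 its log2 fold change was 1.43 (adjusted p = 0.0288), where 2 members were called (2.47%), against 5.75% of all genes.

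Cox4i1, the ubiquitous form, differed far less. Cox4i1 had 497, 519 and 991 RPKM in mandible libraries 1, 2 and 3, against 466, 467 and 812 RPKM in tibia libraries 1, 2 and 3. The difference was 0.18 on the log2 scale (SE 0.4), and -0.01 after quantile normalization. As a share of the summed RPKM of both genes, Cox4i2 made up 9.84%, 11.8% and 7.4% in the mandible, against 5.82%, 3.62% and 2.69% in the tibia. The shares averaged 9.67% ± 2.2 in the mandible and 4.04% ± 1.61 in the tibia (SD, n = 3 each), a difference of 5.63 percentage points (two-sided exact permutation p = 0.1, adjusted p = 0.5 over 10 shares). With 3 libraries against 3 there are 20 splits, and 0.1 is the smallest p they can give.

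**Figure D5:**
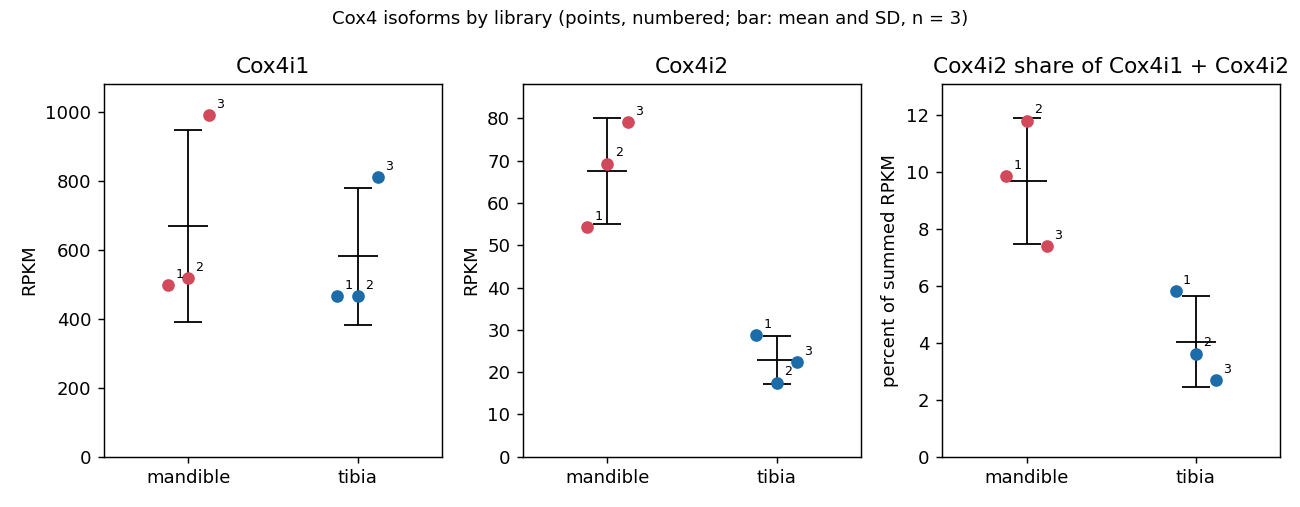
RPKM of Cox4i1 (left) and Cox4i2 (middle), and the share of Cox4i2 in their sum (right), in each library of the mandible (red) and the tibia (blue), numbered by dissection; bars are the mean and SD of 3 libraries. The mandible libraries lie between 54.2 and 79.1 RPKM for Cox4i2, all above the tibia libraries at 17.5 to 28.8 RPKM.

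Cox4i2 lies at chr2:152753916-152765039 (mm10), a span that overlaps Bcl2l1, a survival gene of the mitochondrial outer membrane. Bcl2l1 had 26.8, 30.2 and 19.5 RPKM in mandible libraries 1, 2 and 3, against 27.9, 26.9 and 24.4 RPKM in tibia libraries 1, 2 and 3, and so did not follow Cox4i2. Markers of pericytes and vascular smooth muscle, cells in which Cox4i2 is known, summed to 64.2, 88.1 and 41.7 RPKM over 10 genes in the mandible, against 60.2, 61.4 and 91.8 RPKM in the tibia, with the sites overlapping and none of the 10 at 0 in every library. Rgs5, a pericyte gene of the list, had 18.4, 25.1 and 10.9 RPKM in the mandible, against 23.2, 26.0 and 46.4 RPKM in the tibia. Vtn, another gene of the list, had 1.17, 1.92 and 0.764 RPKM in the mandible, against 0.140, 0.551 and 0.243 RPKM in the tibia. Vtn was thus higher in every mandible library, by 1.12 on the log2 scale (limma adjusted p = 0.276, and 0.0234 with the block). The median log2 fold change of the 10 genes was -0.08 with all libraries and 0.46 without dissection 3. Endothelial markers summed to 75.2, 89.6 and 112.4 RPKM over 7 genes in the mandible, against 274.9, 128.1 and 197.1 RPKM in the tibia. The pericyte and smooth muscle sum thus overlapped between sites, and the endothelial sum was lower in every mandible library. Marker sums of other cells were higher in every mandible library. That of 8 ameloblast and odontoblast genes was 565.9, 1340 and 2193 RPKM in the mandible, against 7.7, 6.9 and 10 RPKM in the tibia. The sum of 9 chondrocyte genes was 106.2, 202.9 and 107.9 RPKM in the mandible, against 30.8, 42.5 and 20.5 RPKM in the tibia. Osteoclast markers, 10 genes, summed to 855.7, 706.2 and 865.8 RPKM in the mandible, against 653.5, 660.1 and 620.5 RPKM in the tibia. None of the 9 osteoclast genes tested was called, with or without the block. The sum of 7 epithelial genes was 12.6, 23.1 and 10.6 RPKM in the mandible, against 4, 3.9 and 4.7 RPKM in the tibia, and that of 6 Schwann cell genes was 210.9, 177.9 and 172.6 RPKM in the mandible, against 68.4, 89.1 and 102 RPKM in the tibia. No gene of these lists was at 0 in every library, and their part in the Cox4i2 difference was not tested.

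Cox6b2, known as the testis form of subunit 6B, had 17.3, 18 and 32.5 RPKM in mandible libraries 1, 2 and 3, against 8.34, 7.52 and 26.4 RPKM in tibia libraries 1, 2 and 3. The sites were apart in dissections 1 and 2, and tibia library 3 lay above mandible libraries 1 and 2. Its log2 fold change was 0.84 (SE 0.51, limma adjusted p = 0.760), with an adjusted p of 0.0513 under the dissection block. Without dissection 3 it rose in the mandible by 1.11 on the log2 scale (adjusted p = 0.00598). Its share of subunit 6B was 10.2%, 10.1% and 6.87% in the mandible, against 5.19%, 4.99% and 6.72% in the tibia, so that the sites did not overlap by a narrow margin, and the mean difference was 3.44 percentage points (two-sided exact permutation p = 0.1, adjusted p = 0.5 over 10 shares). With the highest transcript per symbol in place of the sum, the share differed by 1.26 points (two-sided exact permutation p = 0.4) and the log2 fold change was 0.51. Leaving out 1 library gave log2 fold changes of 0.52, without tibia library 2, to 1.40, without tibia library 3.

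The other large differences rested on tibia library 3. Cox6a1 and Cox8a had log2 fold changes of 1.12 (SE 0.8) and 1.01 (SE 0.7), and both were at 0.14 without that library. Uqcrc1 had 0.78 (SE 0.59) and was at 0.05 without it. Ndufb2, a membrane-arm subunit of complex I, had 0.76 (SE 0.78) and was at -0.16 without it. Mandible library 3 was low in Ndufb2 too, at 19.4 RPKM against 39.6 and 41.2 RPKM in mandible libraries 1 and 2. Without both libraries of dissection 3 Ndufb2 was at 0.19. At the other end was Ndufa4l2, a relative of Ndufa4 that is induced by low oxygen. It had 22, 100 and 32 RPKM in mandible libraries 1, 2 and 3, against 129, 78.7 and 19.6 RPKM in tibia libraries 1, 2 and 3, which gave a difference of -0.50 on the log2 scale (SE 0.81, limma adjusted p = 0.960). The order of the sites changed from dissection to dissection, with differences of -2.53, 0.35 and 0.69 on the log2 scale. Ndufa4l2 overlaps Shmt2, which had 29.7, 29.9 and 26.9 RPKM in the mandible, against 32.1, 34.4 and 27.1 RPKM in the tibia.

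Next lowest were Ndufs5 and Ndufv3, accessory subunits of complex I. Ndufs5 had 17.8, 27.1 and 41.5 RPKM in mandible libraries 1, 2 and 3, against 28.8, 28.3 and 36.7 RPKM in tibia libraries 1, 2 and 3, with a difference of -0.19 on the log2 scale (SE 0.32). Ndufv3 was at -0.07 (SE 0.46). Neither passed the test, and both overlapped between sites. Atp5s, named for coupling factor B and not a subunit of the core enzyme, was low but steady, with 2.15, 2.09 and 2.22 RPKM in the mandible, against 1.44, 1.48 and 1.47 RPKM in the tibia. Its log2 fold change was 0.44 (SE 0.15, limma adjusted p = 0.444, and 0.116 with the dissection block), it had no overlap of sites, and library 3 did not stand out.

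Of 10 isoform shares compared, those of Cox4i2 and Cox6b2 were the 2 in which the sites did not overlap. The muscle forms were scarce, Cox6a2 having 0.766, 0.731 and 3.64 RPKM in mandible libraries 1, 2 and 3, against 0.37, 1.23 and 2.87 RPKM in tibia libraries 1, 2 and 3. Cox7a1, the muscle form of subunit 7A, had 1.55, 1.65 and 6.49 RPKM in the mandible, against 0.889, 1.31 and 3.43 RPKM in the tibia. Cox8b, the muscle form of subunit 8, had 0.111, 0.332 and 0.905 RPKM in the mandible, against 0.280, 0.424 and 0.638 RPKM in the tibia. All 3 were highest in library 3, as was the sum of skeletal muscle markers given above. The 7 markers of that list above the limit had median differences of library 3 of 1.82 in the mandible and 2.34 in the tibia. Below the limit, Ttn had 0.0503, 0.0493 and 0.0311 RPKM in the mandible, against 0.0529, 0.0625 and 0.0179 RPKM in the tibia. Mb was highest in library 1 at both sites. The transcripts of Cox6a2, Cox7a1 and Cox8b were also short, at 680, 393 and 360 bases. The part of muscle cells or of length in their values was not tested. Cox7b2, the testis form of subunit 7B, was listed at 0 in 3 of the 6 libraries and did not exceed 0.0712 RPKM.

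The c subunit of the ATP synthase ring is made from 3 genes that differ in their leader peptides and give the same mature protein. Atp5g2 supplied the most, with 47.9% ± 0.426 of their summed RPKM in mandible libraries and 47.3% ± 1.51 in tibia libraries (SD, n = 3 each). Atp5g1 supplied 31.6% ± 2.57 in the mandible and 31.5% ± 1.63 in the tibia, and Atp5g3 supplied 20.6% ± 2.97 in the mandible and 21.2% ± 2.01 in the tibia. The differences between sites lay between -0.648 and 0.554 percentage points (two-sided exact permutation p = 0.7 to 1.0). Each was smaller than the SD of the tibia libraries, but that of Atp5g2, at 0.554, was larger than its mandible SD of 0.426.

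No gene of the other respiratory lists passed the test between sites. The count was 0 in either direction among 14 complex I assembly factors, 37 assembly factors of complexes II to V, 18 genes of the tricarboxylic acid cycle and pyruvate dehydrogenase, 14 regulators of mitochondrial biogenesis, 7 carriers and porins and 6 respiratory genes outside the naming rule (limma, site only), against 0.972% of all genes. At an unadjusted p under 0.05 there were 3 of these 96 genes, Sco1, Uqcc1 and Suclg2, against 8.99% of all genes. Their median log2 fold changes were 0.18, 0.16, 0.20, 0.04, 0.12 and 0.15 in that order, against 0.12 for all genes. With the dissection block 1 of the 96 was called, Suclg2, a subunit of succinyl-CoA ligase, against 6.49% of all genes. Suclg2 had 12.1, 12 and 10.6 RPKM in mandible libraries 1, 2 and 3, against 7.4, 7.21 and 4.1 RPKM in tibia libraries 1, 2 and 3. It was 0.88 higher on the log2 scale (limma adjusted p = 0.314, and 0.0280 with the block), with no overlap of sites. Slc25a4, the adenine nucleotide carrier that exports ATP, had 599, 594 and 592 RPKM in the mandible, against 486, 465 and 428 RPKM in the tibia. The sites did not overlap, and the difference of 0.37 on the log2 scale (SE 0.24) did not pass limma's test (adjusted p = 0.787, and 0.0679 with the block). The mitochondrially encoded subunits were not analysed here, so the balance of both genomes was not measured.

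Spans of 26 members overlap another RefSeq gene, and for 16 of them that gene is in the table. No source used here gives the strand setting of the counting, so reads of such pairs cannot be told apart. Many respiratory chain genes have processed pseudogenes in the mouse genome, and how reads shared with them were counted is also not given.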

How the data were processed

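The deposited values are RPKM per RefSeq transcript, made by the authors with Partek 6.15.1207 on build mm10, per the file headers. The submitters' processing notes name CASAVA 1.8.2, TopHat2 2.1.0 and Partek 6.6. Per the labels' protocols, cDNA came from a low-input kit, so amplification adds error that the read totals do not show. RPKM leaves uncorrected the share of reads that very abundant transcripts take.

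Transcript values were summed per symbol. Genes with a mean of at least 0.5 RPKM were tested on log2(RPKM + 0.5), which understates changes of low genes, with limma 3.58.1 in R 4.3.3 (lmFit and eBayes with trend, site only, two-sided, Benjamini-Hochberg adjustment). A test of the steps on simulated data was made first. Read totals were those that put the most low values (up to 5 reads) within 0.05 of a whole read, 63.0% to 66.1% of them. No count model was fitted, since values of several transcripts are estimated shares. Lengths and GC content came from GENCODE, left out for 331 genes where they exceeded the RefSeq gene span. Promoters came from RefSeq on GRCm38.p6. Figures used matplotlib 3.10.9 in Python 3.11.15.

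The labels' experiment names tie libraries of the same dissection number, and over genes, same-numbered libraries deviated together (r of 0.59, 0.66 and 0.80 for numbers 1, 2 and 3), so the dissection number was also fitted as a replicate block. Pairs of numbers 1 and 2 correlated at 0.55 and 0.52, nearly as much. Replicates are pools of mice, and the p-values cover the spread between pools only. Alternatives were pseudocounts, filters, scalings, length-class centring, the highest transcript per symbol, and leaving out libraries or dissections.

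Genes were named by rule: members called, the highest of each complex, the 3 highest and 3 lowest fold changes, core subunits, isoforms, the largest differences of library 3, and members next to the filter. Atp5s, Atp5k, Ndufb2, Suclg2, Slc25a4, and the marker genes, regulators and overlapping genes with values, were added after their values were seen. The members and gene lists were chosen with earlier results of these data known. The values of 1 member are not reported here, though it is in the counts.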

Additional observations from a re-analysis of the deposited data

How the results depend on the processing

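The number of genes called between sites was 124 in the model with site only, 828 with the dissection number as a replicate block, 784 with the block and quantile normalization and 1021 with the block and length-class centring. Leaving out 1 library gave 37 to 141 genes, and leaving out dissections 1, 2 and 3 gave 6, 0 and 724, with 469 genes at an unadjusted p under 0.05 by limma in the second case. The members called were 1 in each of the 3 fits with the block (Cox4i2) and 2 without dissection 3 (Cox4i2 and Cox6b2), and 0 under the other alternatives.

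The median log2 fold change ranged, on leaving out 1 library, from -0.22 to 0.44 over all members, from -0.26 to 0.41 for complex I, from -0.01 to 0.37 for complex II, from -0.21 to 0.48 for complex III, from -0.11 to 0.56 for complex IV and from -0.24 to 0.51 for ATP synthase. The lowest came without mandible library 3 and the highest without tibia library 3. Quantile normalization, with or without the block, gave -0.06 for complex I, 0.05 for complex II, 0.06 for complex III, 0.01 for complex IV and -0.01 for ATP synthase. Median-of-ratios scaling gave -0.01 for complex I, 0.06 for complex II, 0.10 for complex III, 0.04 for complex IV and 0.04 for ATP synthase. Without dissection 3 complexes I and III were at 0.04, complex II at 0.21, complex IV at 0.07 and ATP synthase at 0.09. The median difference of library 3 was 0.63 in the mandible and 0.49 in the tibia after quantile normalization. Isoform shares without overlap of sites numbered 1 with the highest transcript per symbol, against 2 as reported, and 2 to 4 on leaving out 1 library.

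Of 357 values of 17 named members under 21 alternatives, 334 kept their direction and their side of the threshold and 18 changed sign. Leaving out 1 library gave -1.27 to 0.07 for Ndufa4l2, -0.49 to 0.11 for Ndufs5, -0.49 to 0.27 for Ndufv3, -0.04 to 0.98 for Cox7a1, -0.53 to 1.09 for Atp5d, -0.16 to 1.25 for Ndufb2, -0.23 to 0.69 for Ndufa10, -0.38 to 0.78 for Cox5b and -0.14 to 0.44 for Cox4i1. Without dissection 1, Ndufa4l2 was at 0.52, Ndufs5 at 0.05 and Ndufv3 at 0.03, and without dissection 3, Cox6a1 was at -0.01 and Cox5b at -0.16. With both libraries of dissection 3 left out together, Atp5d was at 0.14, Ndufb2 and Ndufa10 at 0.19 and Ndufv3 at -0.15, each with the sign it had over all 6 libraries. Cox4i1 was at -0.01 after quantile normalization, with and without the block. Cox6b2 was at 0.51 with the highest transcript per symbol, and Sdha at 0.10 under either scaling. The cause of these changes was not tested.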
